A study of Equus caballus with 32 samples.

Results

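RNF genes encode RING finger proteins, most of which are E3 ubiquitin ligases. Of the 21357 genes in the table, 77 had a symbol that begins with RNF and a digit. This naming rule uses no measured value, but the family was chosen with earlier results of these data known. A mean log2 value of at least 3 was required for testing, which 67 of the 77 passed. The other 10 lay under this minimum, from a T0 mean of 2.91 in RNF150 and 2.55 in RNF144A down to -1.72 in RNF112, with RNF17, RNF151, RNF165, RNF186, RNF222, RNF224 and RNF225 between them, and none of the 77 was at 0 in every library.

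RNA was sequenced from cells of the tracheal wash (TW), a lavage of the tracheal lumen, in 16 adult male Thoroughbred racehorses of the same yard, none of which showed clinical signs of respiratory disease. Each horse was sampled at T0, after about 2 months at rest, and again at T1, about 2.5 months into intense race training, which gave 32 libraries. Cytology of the T1 samples placed horses 2, 3 and 10 in the High N group, with a high share of neutrophils, and left 13 others. Haemosiderophages at T1 marked 11 horses as affected by exercise induced pulmonary haemorrhage (EIPH), bleeding into the lung during hard exercise, and horses 4, 9, 10, 11 and 16 were unaffected, so that horse 10 was both High N and unaffected. The horses were largely at pasture at T0 and housed at T1, and so training cannot be told apart from housing or from the time between samples.

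In ubiquitination an E1 enzyme activates ubiquitin, an E2 enzyme carries it, and an E3 ligase picks the substrate and promotes transfer. A RING domain holds zinc ions and brings the charged E2 to the substrate, while in the RING-between-RING (RBR) subfamily the ubiquitin passes through the ligase itself. The chains formed may send a protein to the proteasome, move a membrane receptor to the lysosome, mark histones at damaged DNA, or build platforms for NF-kappaB and antiviral signalling. The roles given for single genes come from work in human or mouse cells.

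The values in the table are log2 expression values with no counts behind them. They appear adjusted for library size, which the sources used here do not state. Scaling to transcript length is not stated either, so levels were compared between horses and time points and not between genes. The defining markers of macrophages were high in every library, with marker means between 13.2 and 14.9. The mean of the ciliated epithelium markers differed far more between horses, at 7.92 to 11.8 in the T0 libraries and 7.81 to 11.8 in the T1 libraries. In such mixed washes, fewer cells of a type and less RNA per cell cannot be told apart. The T1 libraries of horses 1, 14, 15 and 16 lay farthest from the median T1 library, with a median absolute deviation over genes of 0.447 to 0.560, against at most 0.336 in the other 12. The training changes named for RNF genes are therefore also given without these 4 horses. This choice used the T1 libraries only. Horse 3 was kept, although its median absolute change over genes from T0 to T1, 0.693, was the largest of the 16 horses.

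Few RNF genes differed between T1 and T0. RNF181, RNF25 and RNF183 rose and RNF19A and RNF219 fell, so that 5 of 67 tested members passed an FDR of 0.05 (limma, horse as block), or 7.46%. Of all 14643 genes tested, 930 passed, or 6.35%, with 3.89% higher and 2.47% lower at T1. At an unadjusted p under 0.05, 18 members were counted, or 26.9%, against 28.5% of all genes. The median change of the 67 members was -0.04 log2 units, against -0.02 for all genes tested, and 30 members had a positive change. The members thus passed at a share close to that of the table as a whole. RNF181, RNF25, RNF183 and RNF19A were singled out by the study on these same samples, so their calls here are not independent evidence. The study lists all 4 as upregulated in training, whereas RNF19A was lower at T1 in the fit reported here.

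**Figure D1:**
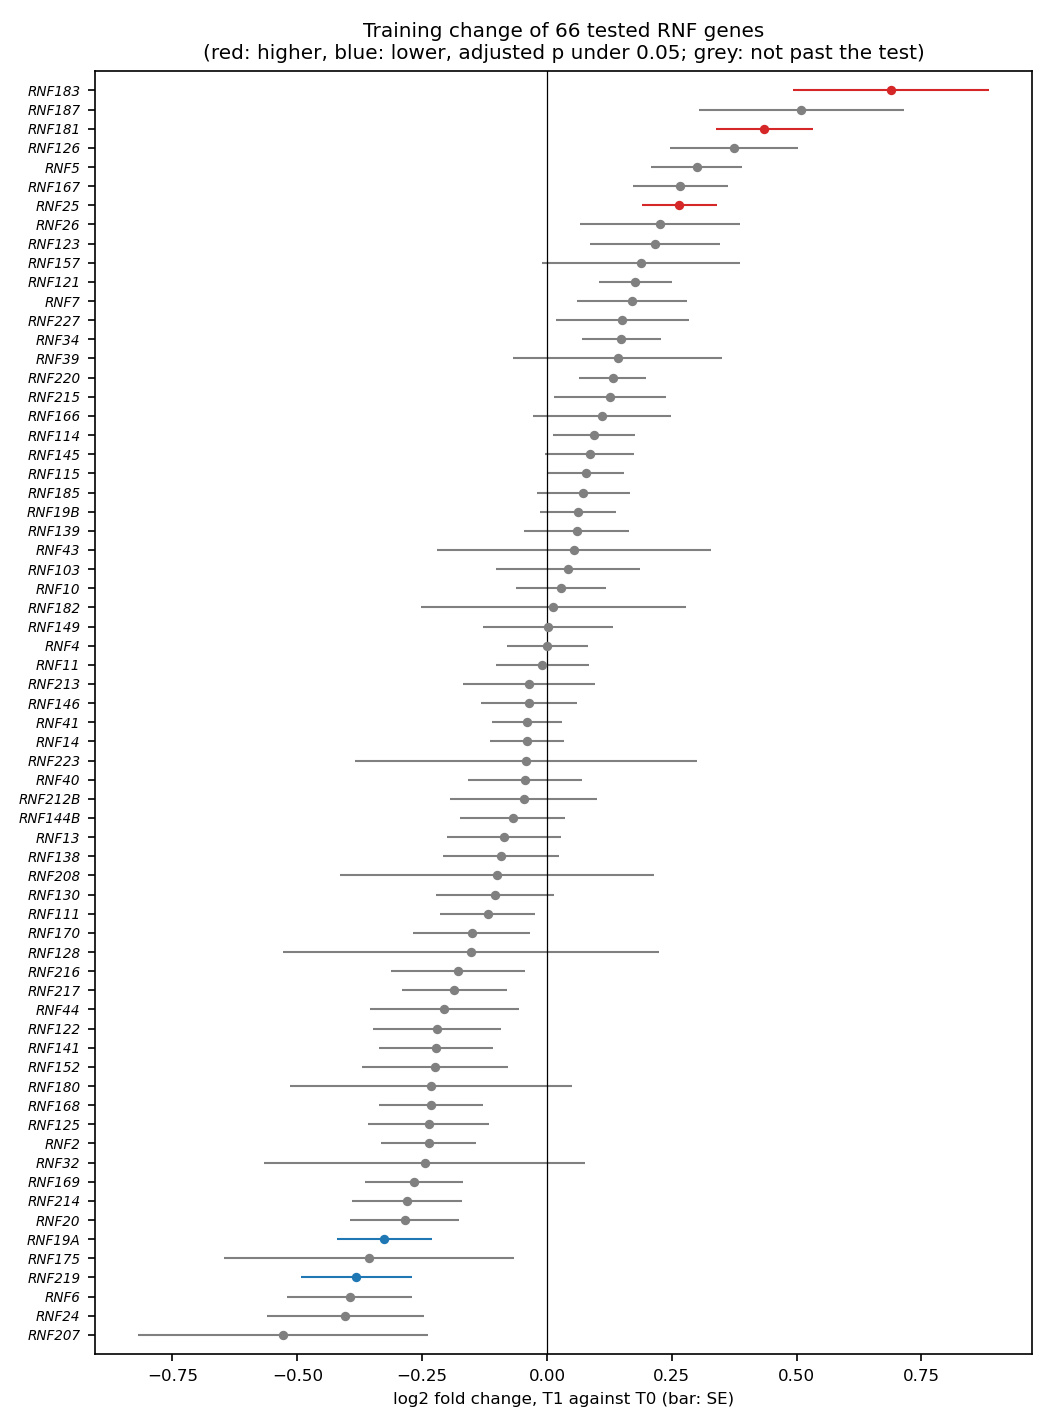
Log2 fold change at T1 against T0 (x axis, bars are the SE) of 66 tested RNF genes (y axis, sorted by change). The 5 genes past the test are coloured, and the changes range from -0.53 in RNF207 to 0.69 in RNF183.

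RNF181 and RNF25 belong with the members known for innate immune and NF-kappaB signalling. RNF181 is a small ligase that acts on the NF-kappaB adaptor BCL10 in human lymphoid cells. At T0 its value was 9.88 at the lowest, 10.44 at the median and 10.77 at the highest, and at T1 10.39, 10.78 and 11.62. The ranges overlapped, but 15 of 16 horses had the higher value at T1, and only horse 13 had a lower one. The mean rose from 10.43 ± 0.26 to 10.86 ± 0.44 (SD, n = 16), a log2 fold change of 0.44 (SE 0.098, limma adjusted p = 0.0291). The 3 highest T1 values, each between 11.61 and 11.62, came from horses 1, 14 and 15.

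RNF25 (also AO7) binds the p65 subunit of NF-kappaB and marks proteins of stalled ribosomes. Its values ran from 9.45 through a median of 9.73 to 10.16 at T0, and from 9.59 through 9.97 to 10.92 at T1. Again 15 of 16 horses were higher at T1, with the largest change, 0.84, in horse 1 and a change of -0.10 in horse 12. The mean went from 9.74 ± 0.21 to 10.01 ± 0.34 (SD, n = 16), a log2 fold change of 0.26 (SE 0.075, limma adjusted p = 0.0453).

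RNF183 is a membrane ligase best known from kidney and also linked to stress of the endoplasmic reticulum (ER). It was the tested member with the largest increase. It ran from 3.05 through a median of 4.37 to 5.53 at T0, and from 3.17 through 4.999 to 6.14 at T1. The groups overlapped over most of their range, although 14 of 16 horses were higher at T1. Changes spanned -0.96 in horse 5 to 2.25 in horse 2. The mean rose from 4.28 ± 0.73 to 4.97 ± 0.76 (SD, n = 16), a log2 fold change of 0.69 (SE 0.20, limma adjusted p = 0.0460), and this low-expressed gene was not tested under a minimum of 6.

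RNF19A (dorfin) is an RBR ligase with membrane spans that ubiquitinates misfolded proteins, among them mutant SOD1. It ran from 10.93 through a median of 11.43 to 11.90 at T0, and from 9.91 through 11.15 to 11.58 at T1. The value was lower at T1 in 12 of 16 horses and higher in 4. The mean fell from 11.39 ± 0.30 to 11.07 ± 0.39 (SD, n = 16), a log2 fold change of -0.33 (SE 0.094, limma adjusted p = 0.0473), with the largest fall in horse 16, at -1.01. That T1 value, 9.91, lay well under the next lowest T1 value, 10.71 in horse 14.

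RNF219 (OBI1) is a ligase of the origin recognition complex needed for DNA replication origins to fire. At T0 it ran from 8.32 through a median of 8.75 to 9.20, and at T1 from 7.27 through 8.62 to 8.90. It was lower at T1 in 15 of 16 horses. The mean fell from 8.76 ± 0.24 to 8.38 ± 0.46 (SD, n = 16), a log2 fold change of -0.38 (SE 0.11, limma adjusted p = 0.0481). Horse 15 had the largest fall, at -1.41, and horse 12 the only rise, at 0.21.

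**Figure D2:**
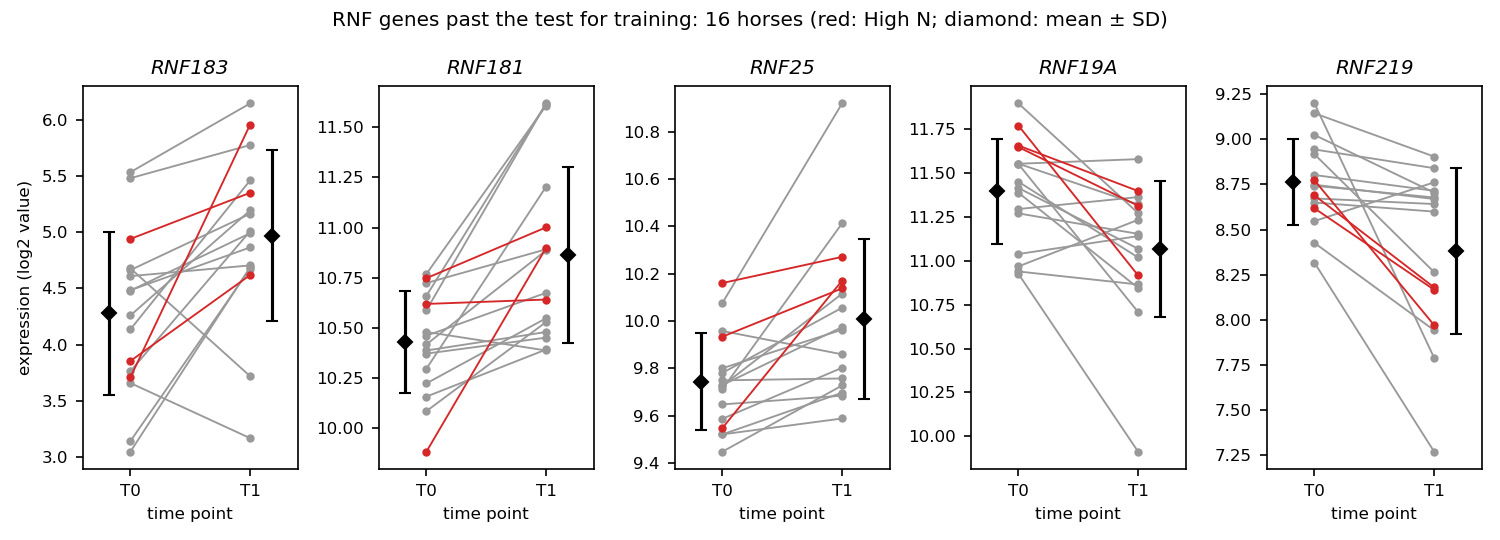
Log2 values of the 5 RNF genes past the test (y axis) at T0 and T1 (x axis), with a line for each of the 16 horses, High N horses in red and black diamonds for the mean ± SD. RNF181 and RNF25 were higher at T1 in 15 of 16 horses, RNF183 in 14, and RNF19A and RNF219 were lower in 12 and 15.

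All 5 calls had adjusted p-values between 0.0291 and 0.0481, close to the threshold. Without horses 1, 14, 15 and 16, no RNF gene and no gene of the table passed, while 2065 genes had an unadjusted p under 0.05. The changes without these 4 horses were 0.31 for RNF181, 0.19 for RNF25, 0.67 for RNF183, -0.24 for RNF19A and -0.24 for RNF219, with limma adjusted p-values from 0.243 to 0.298. With any 1 horse left out in turn, RNF181 passed in 11 of 16 fits, RNF19A in 5, RNF219 in 4 and RNF25 and RNF183 in 3 each. Neutrophil markers were also higher at T1 in 12 of 16 horses, with marker means of 8.36 to 9.55 at T0 and 8.50 to 10.9 at T1. With the cell marker means as covariates in the fit, the change of RNF181 was 0.28, RNF25 0.16, RNF183 0.63, RNF19A -0.23 and RNF219 -0.18, and none passed. Their direction held in each of these settings.

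Next to these, several members had changes of similar size that did not pass the test. Among ligases of the secretory pathway and cytosol, RNF187, a coactivator of the AP-1 factor JUN, had a change of 0.51 (SE 0.21, limma adjusted p = 0.115) and spanned -0.71 in horse 9 to 2.66 in horse 1. RNF126, which clears hydrophobic proteins with BAG6, had 0.37 (SE 0.13, limma adjusted p = 0.0732), with 14 horses of 16 above their T0 value. RNF5, an ER-anchored ligase of protein quality control that also targets the antiviral adaptor STING, had 0.30 (SE 0.091, limma adjusted p = 0.0536) with 11 of 16 horses higher. RNF167, an endosomal ligase, had 0.27 (SE 0.094, limma adjusted p = 0.0797).

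The largest negative changes apart from RNF219 were in RNF207, RNF24, RNF6 and RNF175. RNF207, known for its effect on cardiac potassium channels, had -0.53 (SE 0.29, limma adjusted p = 0.242), from -3.16 in horse 3 to 1.27 in horse 11. The T1 value of RNF207 in horse 3, 2.43, lay at the low end of the values of this gene. RNF24, a membrane protein that retains TRPC channels in the Golgi, had -0.40 (SE 0.16, limma adjusted p = 0.105). RNF6, which modifies the androgen receptor, had -0.40 (SE 0.12, limma adjusted p = 0.0578). RNF175 had -0.36 (SE 0.29, limma adjusted p = 0.449). Without horse 3 the change of RNF175 was -0.20. RNF207 was lower at T1 in 11 of 16 horses and RNF175 in 10, and the other horses were higher. Of the 18 members with an unadjusted p under 0.05, RNF214 and RNF121 had changes of -0.28 and 0.18, with limma adjusted p-values of 0.108 and 0.123. Without horses 1, 14, 15 and 16, the changes were 0.18 for RNF187, 0.18 for RNF126, 0.23 for RNF5 and 0.13 for RNF167. They were -0.39 for RNF207, -0.41 for RNF24, -0.25 for RNF6 and -0.51 for RNF175, and -0.17 for RNF214 and 0.080 for RNF121.

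No ligase of chromatin and DNA damage passed the test. Of 10 tested, 9 had a negative change, against 53.6% of all genes, and the median was -0.11. An unadjusted p under 0.05 was found in 4, or 40%, against 28.5% of all genes. Without horses 1, 14, 15 and 16, 9 of 10 again had a negative change, against 56.7% of all genes. None then had an unadjusted p under 0.05, against 14.1% of all genes. The 4 were RNF2, RNF20, RNF168 and RNF169. RNF2, the catalytic subunit of Polycomb repressive complex 1 that marks histone H2A, went from 8.39 to 8.15, a change of -0.24 (SE 0.094). RNF20, which with RNF40 marks histone H2B, had -0.29 (SE 0.11), and RNF40 itself had -0.04 (SE 0.11). RNF168, which builds the ubiquitin mark that recruits 53BP1 to DNA breaks, had -0.23 (SE 0.10), and RNF169, which binds that mark, had -0.27 (SE 0.098). RNF4, a SUMO-targeted ligase, had a mean of 10.37 at both times. Without the 4 horses the changes were -0.14 for RNF2, -0.16 for RNF20, -0.10 for RNF168 and -0.19 for RNF169. Those of RNF40 and RNF4, near 0 with all horses, were -0.09 and -0.02, and both changed sign with horse 14 left out.

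Of the 10 tested members of innate immune and NF-kappaB signalling, 2 rose and the median change was -0.02. Of all genes tested, 3.89% rose and 2.47% fell, and the median change was also -0.02. RNF213, a large ligase that coats bacteria in the cytosol and carries the risk variant of moyamoya disease, had a change of -0.04 (SE 0.13), with 10 horses higher and 6 lower, -0.06 without the 4 horses that stood apart and 0.07 without horse 14. RNF125, which limits RIG-I signalling, had its lower value at T1 in 11 of 16 horses, with a change of -0.24 that did not pass the test and of -0.20 without the same 4 horses. Of 25 tested membrane, ER and endosome members, 1 rose and 1 fell and the median was 0.01. Of the 6 RBR members tested, 1 fell (RNF19A) and 5 had a negative change. None of the 6 tested members with a protease-associated domain passed. These families overlap with the groups by role, and RNF19A counts in both. Of the 22 members outside the chromatin, innate immune and membrane groups, only RNF219 passed.

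The rest of the ubiquitin pathway was described from a list of 33 tested ubiquitin genes, E1 and E2 enzymes. Of these, 4 rose and 1 fell, with a median change of 0.08. Of all genes tested, 6.35% passed, 3.89% higher and 2.47% lower, and the median change was -0.02. UBB, which encodes polyubiquitin, had a change of 0.45 (limma adjusted p = 0.0340), and UBE2S, an E2 that extends chains in mitosis, had 0.39. UBA6, an alternative E1 enzyme, had -0.34. Among 25 tested partners and substrates of RNF ligases, SKIL, a transcriptional repressor of TGF-beta signalling that RNF111 degrades, fell (-0.46, limma adjusted p = 0.0415), and no other passed. Of 35 type I interferon-stimulated genes tested, 11 rose and none fell, against 3.89% and 2.47% of all genes, with a median of 0.27. Part of that list was chosen by the study on these samples. Most of the 11 were among the genes that the study listed as upregulated, so their calls are not independent evidence.

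The spread between horses was larger at T1 in most genes of the table, and the RNF genes did not stand out in that count. The SD over 16 horses was larger at T1 than at T0 in 51 of 67 members, or 76.1%, against 77% of all genes tested. The median ratio of the SD at T1 to that at T0 was 1.496 for the members and 1.26 for all genes. Without horses 1, 14, 15 and 16, whose T1 libraries lay farthest from the median over all genes, the ratio was 1.25 for the members and 1.17 for all genes, and 53 of 67 members, or 79.1%, had the larger SD at T1, against 73.6% of all genes. RNF167 went from an SD of 0.10 to 0.39, RNF126 from 0.17 to 0.50 and RNF187 from 0.31 to 0.85. Horse 1 held the highest T1 value in all 3, at 12.2 for RNF167 and RNF126 and 12.8 for RNF187, and horse 9 the lowest. RNF41, which acts on the ERBB3 receptor, had about the same SD at both times, 0.16 and 0.15. Of the members, 5 moved in 1 direction in at least 14 of 16 horses, or 7.46%, against 5.6% of all genes: RNF181, RNF183, RNF25, RNF219 and RNF126.

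**Figure D3:**
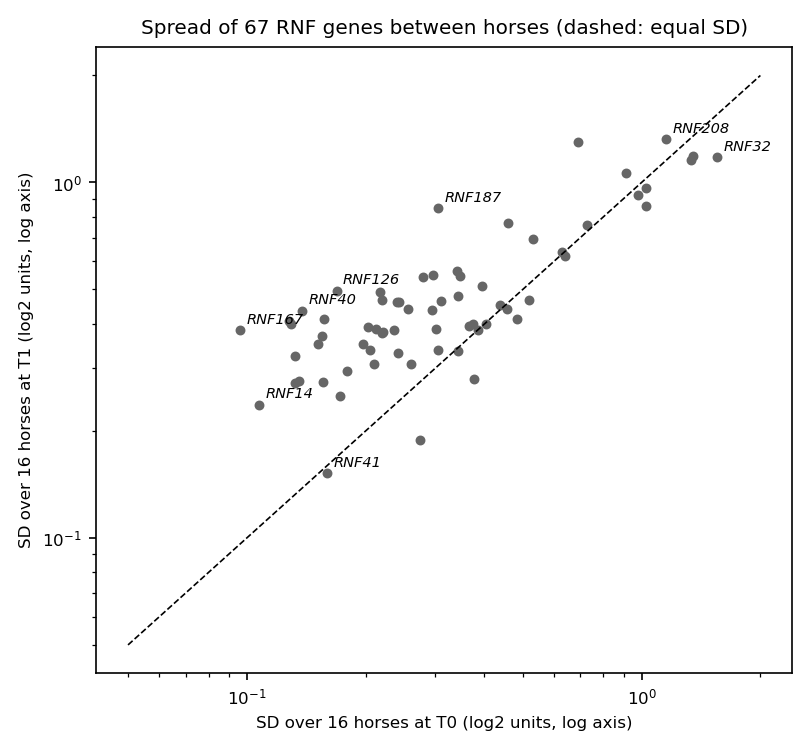
SD over 16 horses of each of the 67 tested RNF genes at T0 (x axis) and T1 (y axis), both on log axes in log2 units, with a dashed line of equal SD. In all, 51 of the 67 points lie above the line, and RNF187 moved from 0.31 to 0.85.

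The most variable members at rest were RNF32 (SD 1.56), RNF128 (SD 1.35), RNF207 (SD 1.33), RNF208 (SD 1.16) and RNF180 (SD 1.03). RNF32 ran from 5.34 in horse 15 through a median of 8.14 to 10.34 in horse 16. RNF128 (GRAIL), a ligase known for T cell anergy, ran from 4.88 through 7.62 to 9.02. The members with the highest values, RNF130, RNF213, RNF13, RNF19B and RNF10, had T0 means of 13.92, 13.06, 12.71, 12.46 and 12.27. These means were not compared with each other, since no scaling to transcript length is stated.

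The variable members varied with the ciliated epithelium markers of the wash. Each member was correlated with the marker mean of 4 cell types over 16 horses, at each time point separately (8 sets of correlations, Benjamini-Hochberg over all genes within each, 100000 permutations, two-sided). With the ciliated marker mean at T0, 46 of 67 members passed, 22 positive and 24 negative, or 68.7%, against 56.7% of all genes. At T1 the count was 24, 13 positive and 11 negative, or 35.8%, against 27.5%. Without the 2 horses farthest from the median marker mean at T1, 17 members passed, 13 positive and 4 negative, or 25.4%, against 18.7% of all genes. Both measures come from the same library, and the marker mean shares its scaling with every gene.

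RNF32 had the closest relation at T0, with r = 0.98 and rho = 0.99 (permutation adjusted p = 8.5e-05 for r), and r = 0.98 without the 2 horses farthest from the median marker mean. RNF128 had r = 0.97 and rho = 0.97 and RNF182, a ligase described in brain, r = 0.96 and rho = 0.95, at the same adjusted p. The unadjusted p of each was 1e-05, the smallest that these permutations can give. At T1 RNF182 had r = 0.94 and rho = 0.95, RNF32 r = 0.93 and rho = 0.92 and RNF128 r = 0.89 and rho = 0.87. The 4 closest at T1 included RNF43, which removes Frizzled receptors of the Wnt pathway from the cell surface, with r = 0.87 and rho = 0.90. The values of RNF32 in the 16 T1 libraries ran from 5.48 in horse 6, which had the lowest ciliated marker mean, to 9.81 in horse 16.

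Members of the opposite sign varied less in absolute terms. RNF115, which acts on endosomal receptor traffic, ran only from 9.88 to 10.85 at T0. RNF166, a ligase of antiviral signalling and of autophagy of bacteria, ran from 8.83 to 10.65 at T0. At T1 RNF217, an RBR ligase, had r = -0.78 and rho = -0.81, RNF115 r = -0.77 and rho = -0.85 and RNF166 r = -0.76 and rho = -0.79. Without the 2 farthest horses, these were -0.79, -0.64 and -0.66.

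**Figure D4:**
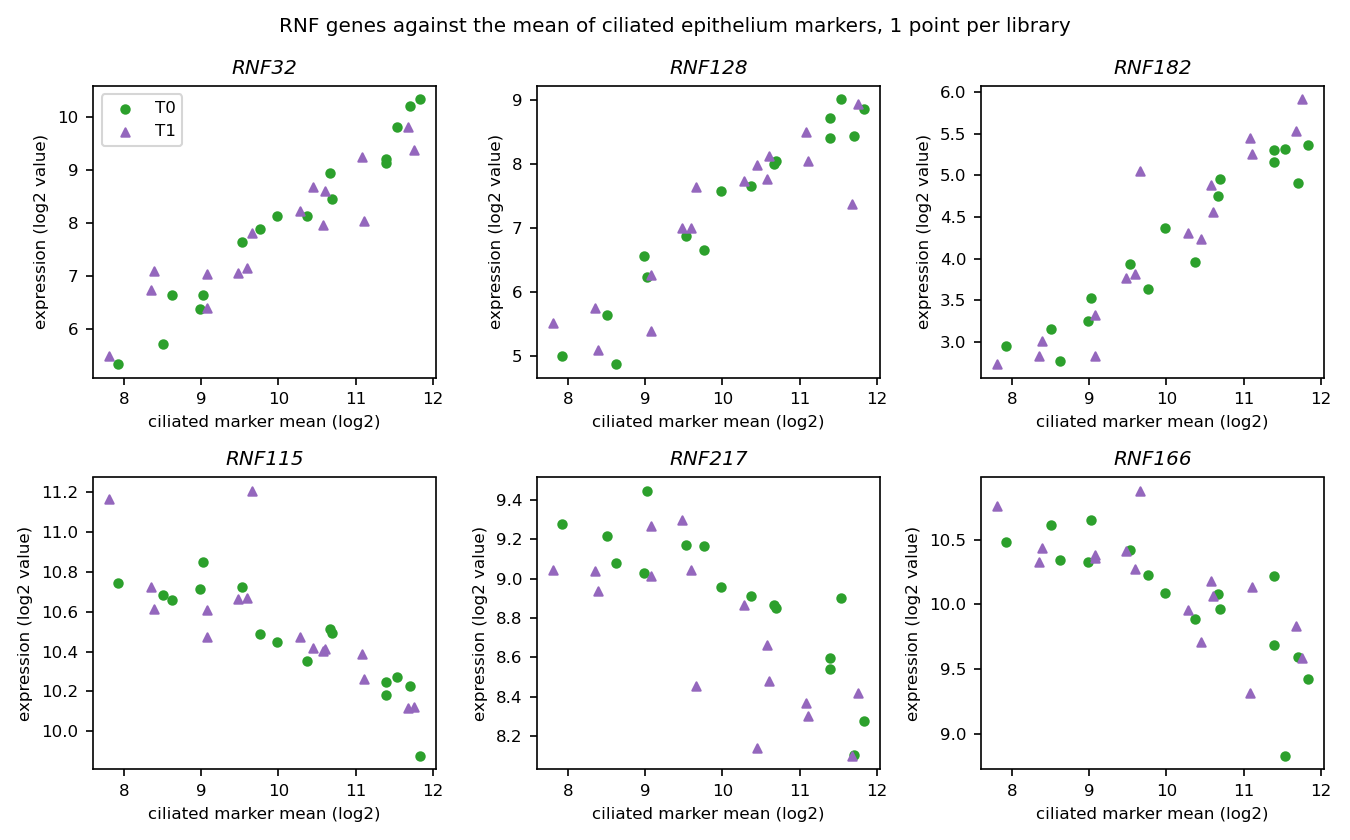
Log2 values of 6 RNF genes (y axis) against the mean log2 value of the ciliated epithelium markers (x axis), with 1 point per library at T0 (green circles) and T1 (purple triangles). RNF32, RNF128 and RNF182 rose along the marker mean, from 5.34 to 10.34 for RNF32 at T0, and RNF115, RNF217 and RNF166 fell along it.

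Of the genes called in training, RNF183 had r = 0.80 and rho = 0.78 with the ciliated marker mean at T0 (permutation adjusted p = 0.000947). RNF219 had r = -0.74 and rho = -0.69, and RNF19A r = -0.68 and rho = -0.61. RNF181 and RNF25 did not pass there (r = -0.49 and rho = -0.44, r = -0.28 and rho = -0.26). Of 16 horses, 7 had a higher ciliated marker mean at T1 than at T0, and its part in the training changes was not tested further than by the covariate fit above.

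With the macrophage marker mean at T0, 44 of 67 members passed, or 65.7%, against 58.5% of all genes. Without the 2 horses farthest from the median marker mean, 33 passed, or 49.3%, against 44.1% of all genes. RNF180 had r = -0.93 and rho = -0.96, and RNF166 had r = 0.91 and rho = 0.88. At T1, 12 members passed, or 17.9%, against 21.3% of all genes, and without the 2 farthest horses no member and no gene of the table passed. With the neutrophil marker mean no member and no gene (0%) passed at either time, and with the T cell marker mean no member passed, against 0.594% of all genes at T0 and 0.082% at T1. The strongest relations with the neutrophil mean at T1 were those of RNF125 (r = -0.67, rho = -0.72, permutation adjusted p = 0.321) and RNF219 (r = -0.67, rho = -0.82, permutation adjusted p = 0.321).

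High N status was tested at T1, where the question was whether horses with many neutrophils differed in gene expression. No RNF gene passed, while 24 of 14630 genes did, or 0.164%, all higher in High N. At an unadjusted p under 0.05 there were 2 members of 67, or 2.99%, against 2.78% of all genes. RNF141 was 8.46, 8.07 and 8.10 in horses 2, 3 and 10, against 8.21 to 9.39 with a median of 8.75 in the other 13, a log2 difference of -0.56 (SE 0.23, limma adjusted p = 0.9997). RNF149, a membrane ligase with a protease-associated domain, was 9.56, 9.47 and 9.46, against 8.41 to 9.60 with a median of 9.07 (log2 difference 0.54, SE 0.24, limma adjusted p = 0.9997). The groups overlapped in both genes, and in all 67 members, whereas 0.615% of all genes did not overlap. RNF138, which acts in the resection of broken DNA ends, RNF10 and RNF2 had differences of -0.44, 0.27 and -0.37. The difference of RNF10 was 0.16 without horse 3, and that of RNF2 was -0.18 without horse 2. The neutrophil marker mean was 9.89 to 10.9 in the High N horses and 8.50 to 9.96 in the others.

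At T0, when the same 3 horses were compared with the rest, no member and no gene passed (0%), and 2 members had an unadjusted p under 0.05, against 3.37% of all genes, RNF19A (0.37, SE 0.17) and RNF121 (0.19, SE 0.089). In the test of whether the training change differed between High N and other horses, no member had an unadjusted p under 0.05, against 1.17% of all genes. For RNF183 the difference in change was 0.55 (SE 0.50) and for RNF181 -0.01 (SE 0.26).

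EIPH-affected and unaffected horses at T1 differed in no RNF gene past the FDR threshold, and in no gene of the table. At an unadjusted p under 0.05 there were 8 members, or 11.9%, against 18.3% of all genes (2680). The 5 members with the smallest p were RNF207, RNF32, RNF166, RNF182 and RNF43, and all but RNF166 were lower in affected horses.

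RNF207 was 4.09, 4.88, 3.25, 5.08 and 6.01 in unaffected horses 4, 9, 10, 11 and 16, against 2.33 at the lowest, 2.61 at the median and 4.58 at the highest in the 11 affected. The log2 difference was -1.73 (SE 0.43, limma adjusted p = 0.171). Affected horses 1, 3, 6, 14 and 15 lay between 2.33 and 2.44, bunched at the low end of the values of this gene. This limits how the size of the difference can be read. The ranges overlapped, with horses 4 and 10 within the affected range. RNF32 was 9.39, 9.25, 7.16, 8.61 and 9.81 in the same horses, against 5.48, 7.10 and 8.68, a log2 difference of -1.52 (SE 0.47, limma adjusted p = 0.171).

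RNF182 and RNF43 had the same order of groups. RNF182 was 5.91, 5.45, 3.82, 4.56 and 5.53 in the unaffected horses, against 2.74, 3.77 and 5.25, a difference of -1.21 (SE 0.46, limma adjusted p = 0.187). RNF43 was 6.46, 6.08, 5.22, 5.59 and 6.80, against 3.89, 4.95 and 6.34, a difference of -0.97 (SE 0.39, limma adjusted p = 0.199). RNF166 went the other way, at 9.58, 9.32, 10.27, 10.06 and 9.83 against 9.71, 10.36 and 10.88, a difference of 0.51 (SE 0.19, limma adjusted p = 0.182).

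**Figure D5:**
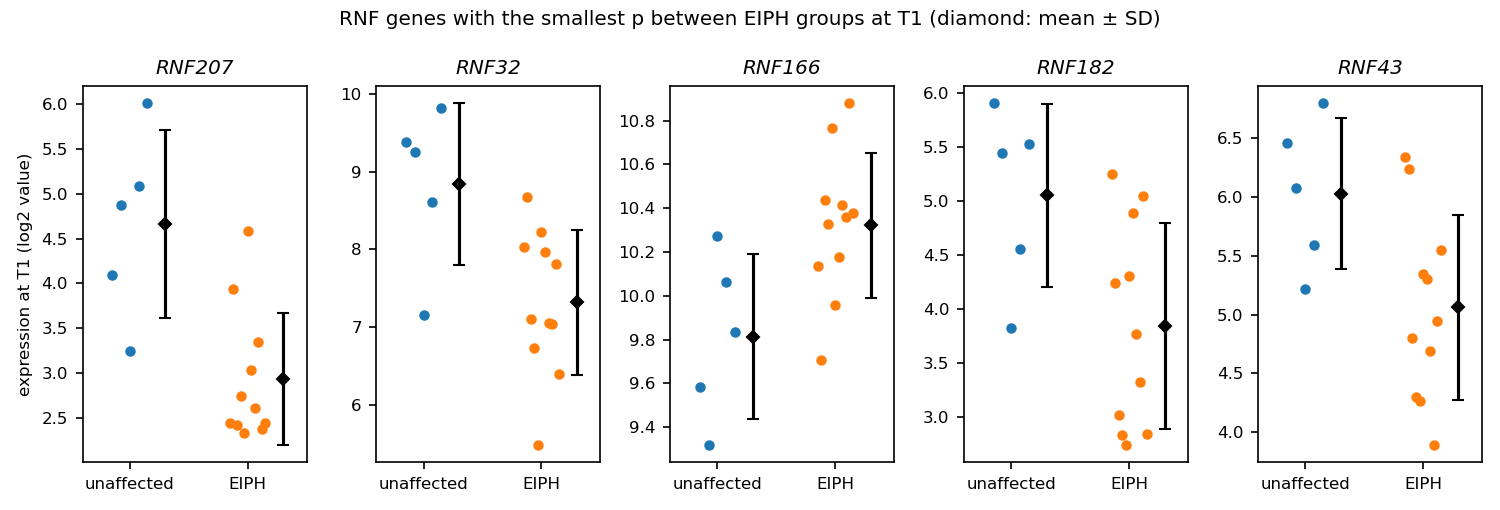
Log2 values at T1 of the 5 RNF genes with the smallest p between EIPH groups (y axis), for 5 unaffected (blue) and 11 affected (orange) horses, with the mean ± SD as diamonds. The groups overlap in each gene, and RNF207 ran from 3.25 to 6.01 in the unaffected and from 2.33 to 4.58 in the affected horses.

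Markers of several cell types differed in level between the EIPH groups, without a call. All 25 measured ciliated markers were lower in affected horses, with a median difference of -1.49, and the marker mean was 7.81 at the lowest, 9.48 at the median and 11.1 at the highest in the affected against 9.60, 11.1 and 11.8 in the unaffected horses. All 13 macrophage markers were higher in affected horses, with a median difference of 0.43 and marker means of 14.05 to 14.7 against 13.6 to 14.4. All 7 measured secretory and squamous epithelium markers were lower, with a median difference of -0.79 and marker means of 7.20 to 11.7 against 9.05 to 11.1. The part of the last pair of lists in the RNF differences was not tested. With the ciliated marker mean as a covariate, the differences were -1.15 for RNF207, -0.28 for RNF32, 0.19 for RNF166, 0.01 for RNF182 and -0.08 for RNF43, none of them past the test. At T0 no member differed between the horses later found affected and unaffected at an unadjusted p under 0.05, against 1.17% of all genes. The T0 differences were -0.90 (SE 0.65) for RNF207, -1.09 (SE 0.75) for RNF32 and -0.57 (SE 0.46) for RNF182. They were -0.48 (SE 0.52) for RNF43 and -0.03 (SE 0.25) for RNF166. All but RNF166 had the direction seen at T1. The ciliated marker mean at T0 had a median of 9.98 in the later affected and 10.7 in the unaffected horses. The training change did not differ by EIPH group past an unadjusted p of 0.05 in any member, against 1.49% of all genes. The groups hold 11 and 5 horses, and all 67 members overlapped between them at T1 and at T0, as did all but 0.041% and 0.00683% of all genes.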

How the data were processed

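TW cell RNA of 16 horses at T0 and T1 was sequenced as 32 directional libraries, which the authors trimmed with cutadapt and quantified with kallisto 0.46.0.1 against EquCab3.0. The deposited table carries the title of raw counts and yet holds log2 values. These appear adjusted for library size and shrunk at low expression, by a step not given in the sources used here. The study states one intended sequencing depth, but the table holds no counts to show what each library reached, and no interval that needs depth is given. The values did not allow the count test of the study. The 77 members were taken by symbol. Comparisons used limma 3.58.1 in R 4.3.3 with a mean-variance trend, for genes with a mean log2 of at least 3, and Benjamini-Hochberg adjustment over all genes tested at 0.05. Training was fitted with the horse as block. The horse numbers pair the samples because each horse was sampled at both times. In 12 of 16 horses the deviations of both samples correlated above 0.1 (range -0.51 to 0.79). In only 6 horses was the T1 sample closest to the T0 sample that of the same horse. High N and EIPH status came from the study's cytology. Named genes are the 4 given by the study, all members past the threshold, the largest changes, and the members with the smallest p, highest values, largest spread or closest marker correlation. Members and lists were chosen with earlier results of these data known. Correlations used scipy 1.17.1. The fits were also run on simulated data. For training, 47% of genes shifted by 0.5 log2 units and 89% of those shifted by 1 were recovered. The same shares were 0% and 17% for High N, and 1% and 21% for EIPH. False calls made up 6.2% of the calls for training, 15% for High N and 4.3% for EIPH, at a threshold of 0.05. These shares describe the simulated data only. With the measured values, no training call was left without horses 1, 14, 15 and 16. Planned protein sequence features were not run, and some genes are not reported here.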

Additional observations from a re-analysis of the deposited data

Results flagged for a closer look

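Of 42 sets of values, each 1 gene in the 5 unaffected horses at 1 time point, screened for a single library far from the rest, 2 stood out, where chance alone flags about 1 in 20. RNF126 at T1 in the unaffected horses was 10.1 in horse 9, against 10.95 in the next lowest unaffected horse. RNF141 at T0 in the unaffected horses was 8.57 in horse 10, against 8.96 in the next lowest. Neither value was used to support a comparison past the threshold, and their cause was not tested. No RNF gene had a training change that differed between High N and other horses, or between EIPH groups, past the threshold.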

How the results depend on the processing

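The count of RNF genes called in training was 5 and changed with the setting. It was 2 without a filter on low values (RNF181 and RNF25), 2 with all libraries shifted to one median (RNF181 and RNF183) and 2 in limma without a trend (RNF181 and RNF183). With one median, 84.0% of the called genes of the table were higher at T1, against 61.2% in the fit reported. Without the replicate block, a fit that leaves the horse pairing unused, the count was 0 (15 genes in the table). It was 0 with marker means as covariates and the replicate block (1 gene in the table), 0 without the 3 High N horses (25 genes) and 0 without horses 1, 14, 15 and 16 (0 genes). The last setting and the EIPH covariate were chosen after seeing the data. With a minimum of 6 it was 6, with RNF5 and RNF6 added and RNF183 untested, and with robust moderation 5. Leaving out 1 horse in turn gave 0 (without horse 3, 6, 14, 15 or 16) to 9 (without horse 9) members, and 77 to 1847 genes. Horses 1, 2, 3, 4, 6, 7, 8, 10, 11, 14, 15 and 16 each lowered the count of members to 2 or fewer. Over one median, marker covariates, both sets of horses left out and each horse left out in turn, 40 of 67 members kept the sign of their change and 27 did not. The 5 called members kept it, and among others named for training RNF213, RNF40 and RNF4 did not. The EIPH and High N counts stayed at 0 under every setting run. With the ciliated marker mean as covariate, the EIPH difference of RNF182 changed sign, to 0.0098. The T1 macrophage correlations went from 12 members to 0 without the 2 farthest horses, and from 21.3% of all genes to 0%. The cause of each move was not tested. The absence of counts limits what can be said of low-expressed genes such as RNF183 and RNF207.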
